A study of Mus musculus with 6 samples.

Results

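A group of 9 genes around lactate and pyruvate handling was examined in CD11b+ tumor cells. It held 5 transporters of the SLC16 (monocarboxylate transporter) family (*Slc16a7*, *Slc16a1*, *Slc16a3*, *Slc16a6* and *Slc16a10*). It also held 2 ancillary proteins that accompany such transporters (*Bsg* and *Emb*) and the 2 main lactate dehydrogenase subunits (*Ldha* and *Ldhb*). The genes were chosen by symbol, with earlier results of these data known. All 9 were found among the 25701 genes of the count table, and all 9 passed the filter on low counts, which kept 13485 genes. Bulk RNA-seq was available for 3 MCT2 CO and 3 MCT2 KO samples of cells purified with CD11b beads from collagenase-digested tumors. Tumors had been grown for 24 days from 100000 TC1 cells, a mouse lung epithelial tumor line, injected under the skin of the flank. Both groups came from young male mice on a C57BL/6 background that carried MCT2 loxP/loxP alleles and a systemic, tamoxifen-inducible Cre transgene (mCre-Tg). Tamoxifen (0.18 mg per g body weight on 5 days) was given to the MCT2 KO mice from an age of 8 weeks, while the MCT2 CO mice were given vehicle. Effects of tamoxifen, of active Cre and of the deletion therefore cannot be told apart, and the injected TC1 cells were themselves not targeted. The paper reports larger tumors in MCT2 KO than in MCT2 CO mice at the end of growth. Tumor size therefore differed along with the groups and cannot be told apart from these effects either. The tissue label of the samples is lung, although the tumors grew in the flank. Values of a group are listed below in the order of its replicates 1, 2 and 3.

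Of the SLC16 family, MCT1, MCT2 and MCT4 carry lactate and pyruvate together with a proton across the plasma membrane, so the direction of transport follows the gradients. MCT1 (*Slc16a1*) is the broadly used form, MCT2 (*Slc16a7*) binds its substrates tightly and is associated with uptake, and MCT4 (*Slc16a3*) is associated with lactate export from glycolytic cells, activated macrophages among them. Basigin (*Bsg*) and embigin (*Emb*) escort the transporters to the membrane, and lactate dehydrogenase interconverts pyruvate and lactate inside the cell, with the *Ldha* subunit typical of glycolytic cells and the *Ldhb* subunit of oxidative ones.

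Total counts ranged from 24863611 to 31713704 per sample, and levels are given as CPM, counts scaled to library size by the TMM method. Of 10 macrophage markers, 9 were well expressed, with summed levels of 5246 to 7097 CPM in MCT2 CO and 6311 to 10108 CPM in MCT2 KO, which overlapped. All 9 had a positive log2 fold change, with a median of 0.29, 1 was at an unadjusted p under 0.05, and 0 were called by edgeR's quasi-likelihood test. The tenth, *Itgam*, which encodes CD11b itself and has 99.1% of its exon bases inside another listed gene, had 1 count over the 6 samples. In this table, 809 of 814 protein-coding genes lying wholly inside another listed gene were at 0 counts, as were 19.99% of the 16261 that overlap none. Markers of other cells were present, and some of them differed between the groups. The 6 fibroblast markers summed to 2015 to 3295 CPM in MCT2 CO and 1680 to 1790 CPM in MCT2 KO, the highest value being that of MCT2 CO replicate 3, and all 6 markers were detected. Neutrophil markers summed to 5.58 to 8.32 CPM against 13.9 to 50.02 CPM (7 markers, with the defining marker *Ly6g* at 0.12 CPM or less in every sample), and B cell markers to 17.2 to 21.7 CPM against 3.898 to 16.1 CPM (6 markers). Sums over T and NK cell, epithelial, endothelial and erythroid markers overlapped between the groups. The epithelial markers summed to 14.03 to 33.54 CPM over the 6 samples. The 4 keratins among them stayed at 0.20 CPM or less, so *Epcam* and *Cdh1* gave nearly all of this sum. The paper states that a definite separation of TC1 cells from host mesenchymal or stromal cells would need further analyses. Low keratins therefore do not show that tumor cells were absent. The part of TC1 cells in the fibroblast marker sum was not tested. In such bulk samples, fewer cells of a type and less RNA per cell cannot be told apart. Across all genes tested, edgeR's quasi-likelihood test called 0 of 13485 genes (Benjamini-Hochberg adjusted p up to 0.05, log2 fold change of 0.58 or more in either direction) between MCT2 KO and MCT2 CO, a background of 0% here. The same test had 1264 genes at an unadjusted p under 0.05, or 9.37%. DESeq2 called 95 of 13484 genes, or 0.705%, with 0.319% higher and 0.386% lower in MCT2 KO.

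The question put to these genes was whether the message of the targeted transporter was lower in the tumor macrophage fraction of MCT2 KO mice, and whether the other members of the system differed with it. The mean level of *Slc16a7* in MCT2 KO was 48.4% of that in MCT2 CO, *Slc16a3* and *Ldha* were higher in every MCT2 KO sample than in any MCT2 CO sample, *Slc16a1* was slightly lower in every one, and the other 5 genes overlapped between the groups. By edgeR's quasi-likelihood test, 0 of the 9 genes passed at the adjusted threshold (0% of all genes), and by DESeq2 1 of 9 did, *Slc16a7* (0.705% of all genes). Fold changes were positive for 6 genes and negative for 3 (50.1% and 49.9% of all genes tested), with a median log2 fold change of 0.11, against 0.00037 over all genes. The groups did not overlap for 4 of the 9 genes, against 15.8% of all genes tested, with MCT2 KO above for 2 (background 7.07%) and below for 2 (background 8.77%). At an unadjusted p under 0.05 there were 3 of 9 genes, 2 higher (background 3.77%) and 1 lower (background 5.6%).

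**Figure D1:**
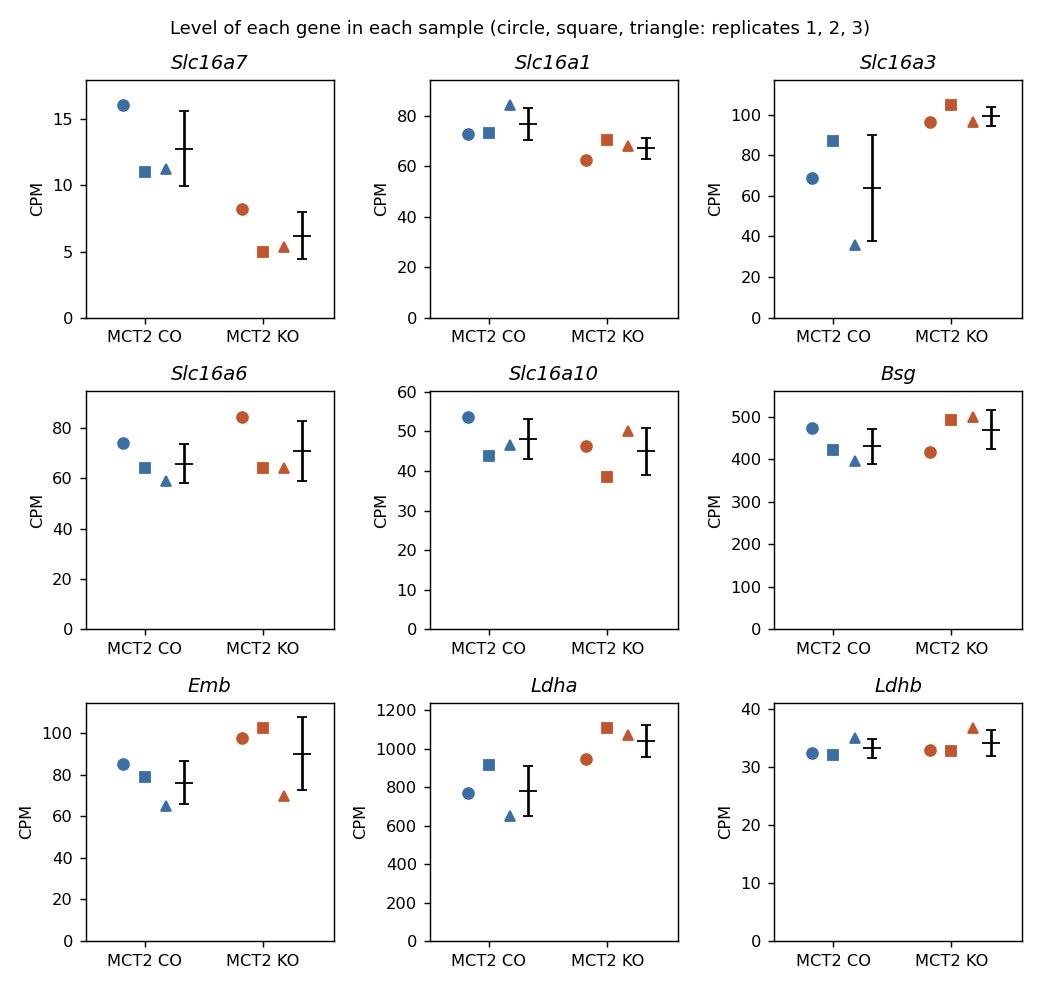
Level of each of the 9 genes in CPM (vertical axes, each starting at 0) in the 3 MCT2 CO samples (blue) and the 3 MCT2 KO samples (red); circles, squares and triangles are replicates 1, 2 and 3, and the black mark is the group mean with its SD. *Slc16a7* lay between 11.04 and 16.0 CPM in MCT2 CO and between 4.97 and 8.22 CPM in MCT2 KO, and the low triangle of *Slc16a3* at 35.7 CPM is MCT2 CO replicate 3.

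The targeted gene *Slc16a7* (ENSMUSG00000020102) lies on the minus strand at chr10:125219270-125389465 of GRCm38, with 11839 bases of annotated exon. The MCT2 CO samples held 481, 287 and 298 of its counts, and the MCT2 KO samples held 196, 162 and 133. In CPM these were 16.0, 11.04 and 11.2 for MCT2 CO, and 8.22, 4.97 and 5.34 for MCT2 KO. The highest MCT2 KO sample was thus below the lowest MCT2 CO sample, and replicate 1 was the highest of its group in both. The means were 12.8 ± 2.84 CPM (SD, n = 3) in MCT2 CO and 6.18 ± 1.78 CPM (SD, n = 3) in MCT2 KO, so that the counted level in MCT2 KO was 48.4% of that in MCT2 CO. If counting ran over whole gene spans, as taken up below, these counts include intron reads and are not all mature message. The log2 fold change was -1.05 ± 0.24 (SE, 95% interval -1.60 to -0.51), and the gene ranked 70 of 13485 by p, at an adjusted p of 0.370 by edgeR's quasi-likelihood test. The DESeq2 run on every gene with a count gave an adjusted p of 0.00862. When any 1 sample was left out, the log2 fold change lay between -1.30 and -0.85, and the adjusted p by edgeR's quasi-likelihood test was between 0.242 and 0.765. The exact two-sided permutation test of the 6 values gave p = 0.1, the smallest that 3 samples against 3 allow. The sources used here do not name the exons flanked by loxP sites, and a count summed over the gene does not separate transcripts that lack them from intact ones. Of the exon bases, 1.51% lie inside *Gm47862*, a gene listed on the opposite strand. B cell and fibroblast marker sums were also lower in the MCT2 KO samples, and their part in the *Slc16a7* result was not tested.

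*Slc16a1*, which encodes MCT1 (ENSMUSG00000032902, plus strand, chr3:104638668-104658462), had 72.8, 73.1 and 84.2 CPM in MCT2 CO, and 62.5, 70.4 and 68.2 CPM in MCT2 KO. All MCT2 KO values lay below all MCT2 CO values, by a narrow margin between the highest of the one and the lowest of the other. The log2 fold change was -0.19 ± 0.09 (SE, 95% interval -0.41 to 0.02), and edgeR's quasi-likelihood test gave an adjusted p of 0.558. The interval of the fold, 0.755 to 1.01, did not reach as far as the difference seen in *Slc16a7*.

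*Slc16a3*, which encodes MCT4 (ENSMUSG00000025161, plus strand, chr11:120948480-120960868), had 69.0, 86.9 and 35.7 CPM in MCT2 CO, and 96.5, 105 and 96.2 CPM in MCT2 KO. The 3 MCT2 KO samples were close together and above every MCT2 CO sample, whereas the MCT2 CO samples were spread widely, with replicate 3 far below the others. The means were 63.9 ± 26.0 CPM (SD, n = 3) and 99.1 ± 4.74 CPM (SD, n = 3). The log2 fold change was 0.63 ± 0.27 (SE, 95% interval 0.01 to 1.26), with an unadjusted p of 0.0470 and an adjusted p of 0.533 by edgeR's quasi-likelihood test. Without MCT2 CO replicate 3 the log2 fold change was 0.35, and without MCT2 CO replicate 2 it was 0.92. The library that lowered the control mean was also the one with the highest fibroblast marker sum, 3295 CPM against 2015 and 2202 CPM in the other MCT2 CO samples. The neutrophil marker sum was higher in every MCT2 KO sample, and the macrophage markers had a median log2 fold change of 0.29, as given above. The part of these markers in the *Slc16a3* result was not tested.

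Of the lactate dehydrogenase subunits, *Ldha* was higher in every MCT2 KO sample and *Ldhb* overlapped between the groups. *Ldha* (ENSMUSG00000063229, plus strand, chr7:46841475-46855627), whose product favors lactate formation, had 773, 916 and 653 CPM in MCT2 CO, and 949, 1107 and 1071 CPM in MCT2 KO. No MCT2 KO sample reached down to the highest MCT2 CO sample, and MCT2 CO replicate 3 was again the lowest. The means were 780 ± 132 CPM (SD, n = 3) and 1042 ± 83.0 CPM (SD, n = 3). The log2 fold change was 0.42 ± 0.14 (SE, 95% interval 0.09 to 0.74), with an unadjusted p of 0.0179 and an adjusted p of 0.449 by edgeR's quasi-likelihood test, and it was 0.30 without MCT2 CO replicate 3. The macrophage markers had the same sign (median log2 fold change of 0.29), and the part of the cell markers in the *Ldha* result was not tested. The paper reports the opposite direction for *Ldha* by single-nucleus RNA-seq, with lower expression in MCT2 KO macrophages. That comparison used nuclei of a macrophage cluster, and the present one used bulk RNA of CD11b+ cells. The reason for the difference was not tested. *Ldhb* (ENSMUSG00000030246, minus strand, chr6:142490249-142507957), the subunit abundant in heart, had 32.4, 32.1 and 35.0 CPM in MCT2 CO and 32.9, 32.8 and 36.6 CPM in MCT2 KO. These groups overlapped, with a log2 fold change of 0.04 (95% interval -0.16 to 0.24, adjusted p of 0.910 by edgeR's quasi-likelihood test). The counts of *Ldhb* and *Slc16a6* are less certain than the others. Of the 50-base words of *Ldhb* transcripts, 20.99% also occur in 1 other gene, the near copy *Gm5514*. Of those of *Slc16a6*, 21.2% occur in other genes on either strand. These include *Amz2* and *Arsg*, which overlap *Slc16a6* on the opposite strand, so this share mixes overlap of position with likeness of sequence. For *Ldha* 9.26% of such words were shared with other genes, and for *Slc16a1*, *Slc16a3* and *Bsg* 0%.

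**Figure D2:**
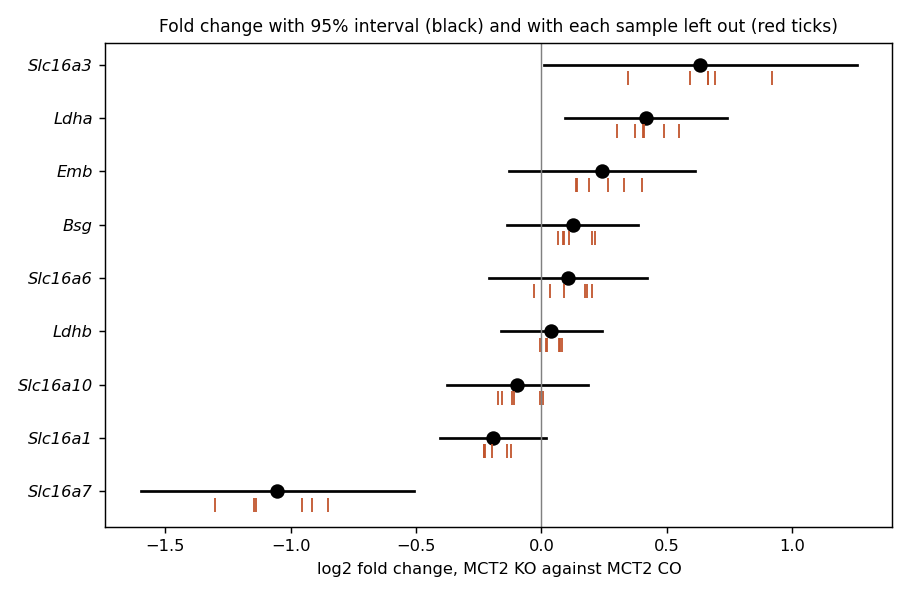
Log2 fold change of MCT2 KO against MCT2 CO (horizontal axis) for the 9 genes, with the black dot as the estimate of edgeR, the black line as its 95% interval and the red ticks as the estimates with each of the 6 samples left out. The interval excluded 0 for *Slc16a7* (-1.60 to -0.51), *Ldha* (0.09 to 0.74) and *Slc16a3* (0.01 to 1.26), before any adjustment over genes.

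*Slc16a3* and *Ldha* are textbook targets of HIF-1, a transcription factor that accumulates in cells short of oxygen and binds the short motifs ACGTG and GCGTG. The promoter windows of these genes are shown because both were higher in MCT2 KO, and that of *Slc16a1* because it was not. The windows hold 250 bases before and 50 bases after the start site, 5′ to 3′ on the strand of the gene, from RefSeq on GRCm38.p6. Capitals mark ACGTG or GCGTG on either strand, so that CACGT and CACGC are the same motifs read on the other strand, and CACGTG counts once. The coordinates, all on the plus strand, are chr11:120948817-120949116 for *Slc16a3*, chr7:46845554-46845853 for the first of 2 windows of *Ldha*, and chr3:104638414-104638713 for *Slc16a1*.
Slc16a3: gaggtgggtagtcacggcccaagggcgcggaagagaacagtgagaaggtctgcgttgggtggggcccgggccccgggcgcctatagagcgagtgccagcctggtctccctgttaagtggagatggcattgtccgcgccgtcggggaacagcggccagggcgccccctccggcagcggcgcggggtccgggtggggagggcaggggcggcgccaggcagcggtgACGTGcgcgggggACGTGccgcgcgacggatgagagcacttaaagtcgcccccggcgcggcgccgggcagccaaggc
Ldha: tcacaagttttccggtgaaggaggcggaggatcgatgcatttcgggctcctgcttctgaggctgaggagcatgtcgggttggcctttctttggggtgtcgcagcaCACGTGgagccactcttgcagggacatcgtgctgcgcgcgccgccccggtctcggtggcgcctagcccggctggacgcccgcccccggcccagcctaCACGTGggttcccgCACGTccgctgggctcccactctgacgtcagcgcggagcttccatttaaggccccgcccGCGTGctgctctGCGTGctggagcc
Slc16a1: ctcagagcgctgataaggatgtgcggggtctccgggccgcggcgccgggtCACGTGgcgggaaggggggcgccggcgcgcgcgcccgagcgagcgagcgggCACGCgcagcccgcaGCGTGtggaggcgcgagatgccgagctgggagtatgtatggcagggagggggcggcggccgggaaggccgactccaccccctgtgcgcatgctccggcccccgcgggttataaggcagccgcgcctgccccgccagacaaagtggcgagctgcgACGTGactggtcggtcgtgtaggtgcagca

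The *Slc16a3* window held ACGTG at 2 places and no GCGTG. The *Ldha* window held ACGTG at 3 places and GCGTG at 2, and the *Slc16a1* window held each at 2 places. Of all 32851 windows, 43.8% held either motif, 19.6% held ACGTG, and 2.69% held ACGTG at 2 or more places. The second *Ldha* window held GCGTG at 2 places, as did the *Slc16a10* window, the *Ldhb* window held it at 1, and the *Emb* window held neither motif. *Slc16a7*, *Slc16a6* and *Bsg* had no entry. The motif was therefore found both in genes that were higher in MCT2 KO and in *Slc16a1*, which was not. A match of letters is a description and not a binding site.

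The other HIF-1 targets listed beside them, 10 genes with varied roles from glucose uptake and glycolysis to oxygen sensing, protein folding and vessel growth, all had a positive fold change. This list was chosen with earlier results of these data known. Its shares against all genes are therefore a description and not an independent test. Of these 10, 0 were called by edgeR's quasi-likelihood test (smallest adjusted p of 0.370), 6 were at an unadjusted p under 0.05 with MCT2 KO higher (3.77% of all genes), and 2 were called higher by DESeq2 (0.319% of all genes). The groups did not overlap, with MCT2 KO above, for 6 of 10, against 7.07% of all genes, and the median log2 fold change was 0.38, against 0.00037 over all genes. It was 0.36 without MCT2 CO replicate 3 and 0.39 without MCT2 KO replicate 2. The 2 genes called by DESeq2 were *Bnip3*, a mitophagy receptor, with a log2 fold change of 0.84 ± 0.18 in edgeR (SE) and an adjusted p of 0.00657 in DESeq2, and *Adm*, which encodes the peptide adrenomedullin, with 0.99 ± 0.25 (SE) and 0.0196. *Slc2a1*, the glucose transporter GLUT1, and *Vegfa*, the vessel growth factor, had log2 fold changes of 0.16 and 0.09, with overlapping groups. The lowest sample was MCT2 CO replicate 3 for 6 of these 10 genes. It was also the lowest for 5 of the 9 genes of the group examined. The paper states that larger tumors, as it reports for MCT2 KO, may become hypoxic. The part of tumor size in these values was not tested.

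**Figure D3:**
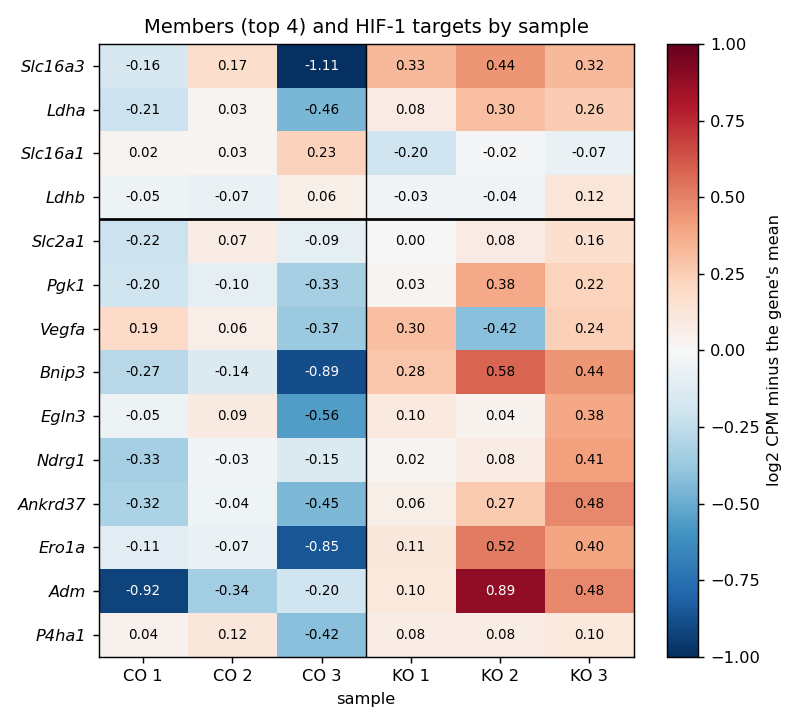
Log2 CPM of each gene in each sample minus the mean of that gene over the 6 samples (color and printed value), for *Slc16a3*, *Ldha*, *Slc16a1* and *Ldhb* above the line and the 10 other HIF-1 targets below it. The third MCT2 CO column is the lowest for *Slc16a3* (-1.11) and *Bnip3* (-0.89), whereas *Slc16a1* is highest there (0.23).

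The less studied transporters overlapped between the groups. *Slc16a6*, which encodes MCT7, a ketone body transporter (ENSMUSG00000041920, minus strand, chr11:109450855-109473598), had 74.1, 64.0 and 58.9 CPM in MCT2 CO and 84.3, 63.9 and 64.0 CPM in MCT2 KO. Replicate 1 was the highest in both groups, and the log2 fold change of 0.11 (95% interval -0.21 to 0.42, adjusted p of 0.832 by edgeR's quasi-likelihood test) became -0.03 without MCT2 KO replicate 1. Of its exon bases, 44.7% lie inside *Amz2* or *Arsg* on the opposite strand. Reads there may have been left out of the counts, so the level of *Slc16a6* is uncertain. *Slc16a10*, which encodes the aromatic amino acid transporter TAT1 (ENSMUSG00000019838, minus strand, chr10:40033532-40142258), had 53.7, 43.8 and 46.5 CPM in MCT2 CO and 46.3, 38.6 and 50.1 CPM in MCT2 KO. Its groups were mixed, with a log2 fold change of -0.10 (95% interval -0.38 to 0.19, adjusted p of 0.832 by edgeR's quasi-likelihood test) that became 0.01 without MCT2 KO replicate 2.

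The ancillary proteins also overlapped. *Bsg* (ENSMUSG00000023175, plus strand, chr10:79704491-79711969), the partner of MCT1 and MCT4, had 475, 422 and 395 CPM in MCT2 CO and 416, 493 and 500 CPM in MCT2 KO. Its log2 fold change was 0.13 (95% interval -0.14 to 0.39, adjusted p of 0.759 by edgeR's quasi-likelihood test). *Emb* (ENSMUSG00000021728, plus strand, chr13:117208536-117274415), the preferred partner of MCT2, had 85.1, 78.8 and 64.9 CPM in MCT2 CO and 98.0, 102 and 69.97 CPM in MCT2 KO. With 2 MCT2 KO samples above and 1 inside the range of MCT2 CO, the log2 fold change was 0.24 (95% interval -0.13 to 0.61, adjusted p of 0.665 by edgeR's quasi-likelihood test). No lower level of *Emb* alongside *Slc16a7* was detected, and the lower end of its interval allows a decrease to 0.915 of the control level. *Emb* shared 14.2% of its 50-base words with other genes.

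To set the transporters against each other, counts were divided by the annotated exon length of each gene, as the scale for comparing levels between genes. The feature type of the counting is not given. However, the lengths in the count table are whole gene spans for all 25701 genes, and 809 of 814 protein-coding genes wholly inside another were at 0 counts. Both are what counting over whole spans gives when reads in overlaps are left out. Intron reads would then be counted, and exon length would not be the right divisor (for *Slc16a7*, 11839 exon bases in a span of 170196). Levels and ratios per kb between genes are limited by this divisor. The order of *Slc16a7* does not rest on it, because its highest level, 16.0 CPM, was below the lowest of every other member. *Slc16a7* was the least abundant of the 9 genes in every sample, at 0.800 CPM per kb on average over the 6 samples and between 0.420 and 1.36 CPM per kb. The most abundant were *Ldha* at 275 and *Bsg* at 248 CPM per kb, whose ranges overlapped. *Ldhb* followed at 21.4 CPM per kb and stood above the next gene in 6 of 6 samples. *Slc16a1* (16.2 CPM per kb), *Slc16a3* (15.3), *Slc16a6* (14.0) and *Emb* (12.05) followed, each overlapping with the next among these 4 genes. *Slc16a10* lay apart below them at 6.32 CPM per kb, still above every value of *Slc16a7*. Among the transporters, *Slc16a1*, *Slc16a3* and *Slc16a6* were thus the most abundant, with overlapping ranges, and *Slc16a7* was the least abundant also within MCT2 CO, at 1.08 ± 0.240 CPM per kb (SD, n = 3).

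**Figure D4:**
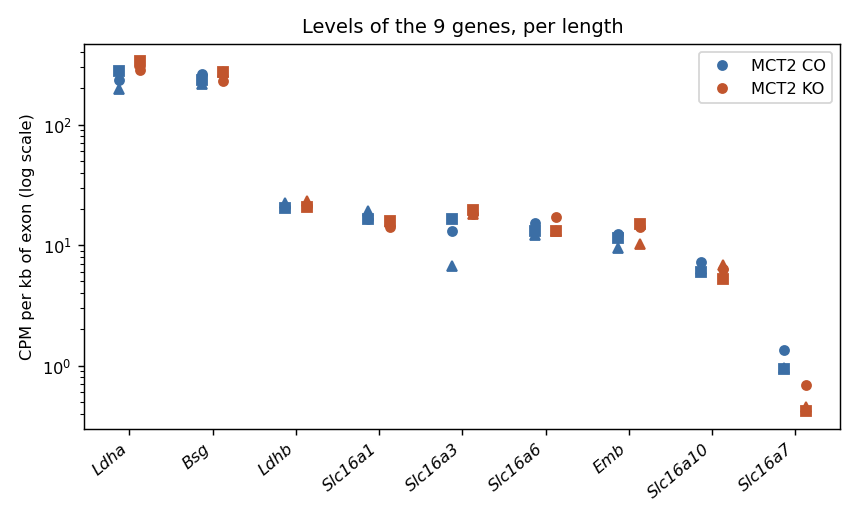
Level of each gene in CPM per kb of annotated exon (vertical axis, log scale), with MCT2 CO samples in blue and MCT2 KO samples in red, circles, squares and triangles being replicates 1, 2 and 3. Genes are in order of their mean over the 6 samples, from *Ldha* at 275 to *Slc16a7* at 0.800 CPM per kb.

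Of the summed CPM per kb of *Slc16a1*, *Slc16a3* and *Slc16a7*, the share of *Slc16a7* was 4.40, 2.76 and 3.55% in MCT2 CO, and 2.11, 1.17 and 1.33% in MCT2 KO. The share was lower in every MCT2 KO sample, with means of 3.57 ± 0.823% and 1.53 ± 0.502% (SD, n = 3 each, exact two-sided permutation test, p = 0.1). The sum of these 3 transporters was 30.4 ± 3.57 CPM per kb in MCT2 CO and 34.3 ± 1.55 CPM per kb in MCT2 KO (SD, n = 3 each), and the groups overlapped (exact two-sided permutation test, p = 0.2). The difference in *Slc16a7*, 1.08 against 0.522 CPM per kb, was smaller than the SD of that sum in either group.

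The ratio of *Slc16a3* to *Slc16a1* per kb was 0.789, 0.988 and 0.353 in MCT2 CO, and 1.285, 1.24 and 1.17 in MCT2 KO. Per kb the ratio was below 1 in each MCT2 CO sample, close to 1 in replicate 2, and above 1 in each MCT2 KO sample, with means of 0.710 ± 0.325 and 1.23 ± 0.0554 (SD, n = 3 each). On the log2 scale the difference of the group means was 0.92 (exact two-sided permutation test, p = 0.1), and it was 0.48 without MCT2 CO replicate 3. Which of the genes is higher within a sample depends on the lengths, since in raw counts MCT2 CO replicate 2 had 2259 for *Slc16a3* and 1902 for *Slc16a1*, whereas the difference between the groups on the log2 scale is the same in raw counts. Summed over all 5 transporters, the level was 50.4 ± 4.62 CPM per kb in MCT2 CO and 54.9 ± 1.42 CPM per kb in MCT2 KO (SD, n = 3 each). Per kb it was higher in every MCT2 KO sample, by 4.52 CPM per kb and by 1.86 without MCT2 CO replicate 3 (exact two-sided permutation test over all 6, p = 0.1). The margin was narrow, with 53.3 CPM per kb in MCT2 CO replicate 1 and 53.9 in MCT2 KO replicate 3. It rests on the exon-length divisor, since the sums in CPM without it overlapped between the groups.

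The share of *Ldhb* in the sum of *Ldha* and *Ldhb* per kb was 8.11, 6.87 and 10.2% in MCT2 CO, and 6.81, 5.87 and 6.72% in MCT2 KO. All MCT2 KO values lay below all MCT2 CO values, although MCT2 CO replicate 2 and MCT2 KO replicate 1 nearly met. The means were 8.38 ± 1.66% and 6.47 ± 0.516% (SD, n = 3 each), a difference of -1.91 percentage points (exact two-sided permutation test, p = 0.1). Without MCT2 CO replicate 3 the difference was -1.03 percentage points. The ratio of *Bsg* to *Emb* per kb overlapped between the groups, with means of 21.6 ± 1.44 for MCT2 CO and 20.6 ± 5.85 for MCT2 KO (SD, n = 3 each).

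**Figure D5:**
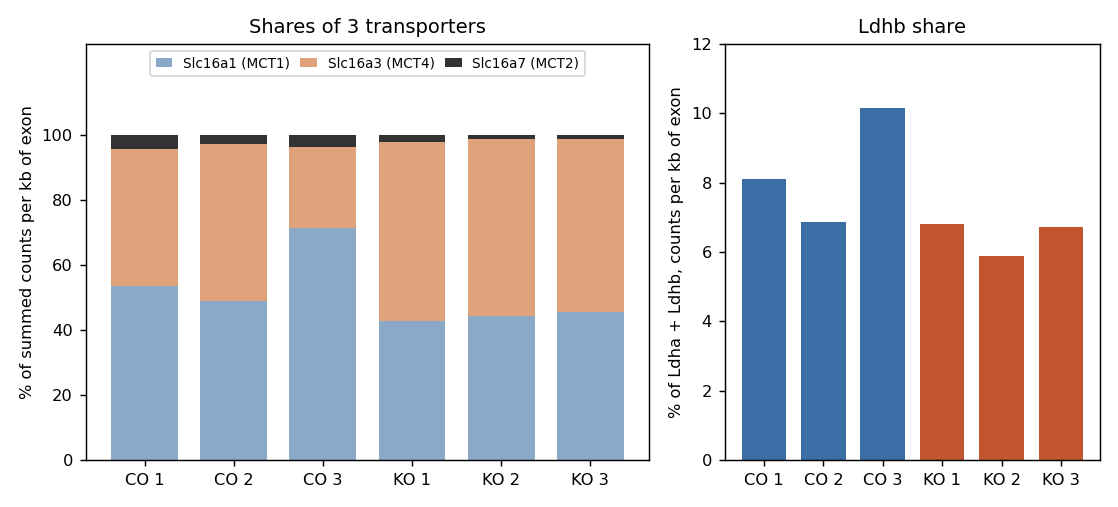
Left, shares of *Slc16a1*, *Slc16a3* and *Slc16a7* in their summed counts per kb of exon, in percent, for each of the 6 samples; right, share of *Ldhb* in *Ldha* plus *Ldhb*, in percent, with MCT2 CO in blue and MCT2 KO in red. The *Slc16a7* share lay between 2.76 and 4.40% in MCT2 CO and between 1.17 and 2.11% in MCT2 KO, and the *Slc16a3* share of MCT2 CO replicate 3 was 25.2%.

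Other genes of the family and of the pathway gave 0 called genes by edgeR's quasi-likelihood test in every list. In the lists of other SLC16 genes, of other carriers, of other lactate dehydrogenases and of proton handling, 0 genes were also called by DESeq2 (0.705% of all genes). There, 0 were at an unadjusted p under 0.05 by edgeR (9.37% of all genes). Since edgeR called 0% of all genes, the first of these counts equals the background. Of the 9 other SLC16 genes, 6 were tested, 3 with a positive and 3 with a negative log2 fold change, and the median was 0.03. *Slc16a8*, which encodes MCT3, was at 0 counts in all samples, and it lies wholly inside *Gm49486* in the annotation. Of 7 other carriers and receptors of lactate or pyruvate, 5 were tested. They included the mitochondrial pyruvate carrier subunits *Mpc1*, with a log2 fold change of 0.05 ± 0.12 (SE), and *Mpc2*, with -0.30 ± 0.15 (SE), and the ancillary protein neuroplastin (*Nptn*), with -0.07 ± 0.09 (SE). The sodium-coupled transporter *Slc5a8* was too low to be tested, with 3, 1 and 1 counts in MCT2 CO and 9, 16 and 3 counts in MCT2 KO, and the lactate receptor *Hcar1* was at or near 0. Of the 4 other lactate dehydrogenase genes, 2 were tested, *Ldhd* with a log2 fold change of -0.02 ± 0.24 (SE) and *Uevld* with 0.17 ± 0.11 (SE).

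All 12 genes of pyruvate entry into mitochondrial metabolism were tested, 9 with a positive and 3 with a negative log2 fold change, and the median was 0.10. *Pdk1*, a kinase that inactivates pyruvate dehydrogenase, had 74.1 ± 21.4 CPM in MCT2 CO and 127.6 ± 16.1 CPM in MCT2 KO (SD, n = 3 each). Its log2 fold change was 0.78 ± 0.21 (SE), with an adjusted p of 0.396 by edgeR's quasi-likelihood test and of 0.0307 by DESeq2. MCT2 CO replicate 3 was again the lowest, at 49.9 CPM against 81.8 and 90.7 CPM in replicates 1 and 2. With each sample left out, the log2 fold change of *Pdk1* lay between 0.56 and 0.95. *Pdk1* was the 1 gene of these 12 called by DESeq2, against 0.705% of all genes (0.319% called higher in MCT2 KO). The pyruvate dehydrogenase subunits *Pdha1* and *Pdhb* had log2 fold changes of 0.12 ± 0.08 (SE) and -0.05 ± 0.08 (SE). Of 9 genes of proton and bicarbonate handling, which disposes of the acid exported with lactate, 8 were tested, 3 with a positive and 5 with a negative fold change, and the median was -0.02.

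The genes whose log2 CPM profile over the 6 samples, centered on the mean of the gene, lay nearest to that of *Slc16a7* were *Gnas*, *Phf1*, *Crlf2*, *Prr7* and *Jund*. Their root mean square distances were 0.078, 0.11, 0.12, 0.16 and 0.16 in log2 units, against a median of 0.62 over the genes compared. They were picked as the nearest, so their small distances and their lower levels in MCT2 KO follow from that choice. *Gnas*, which encodes a G protein subunit, had 20.1 ± 5.32 CPM in MCT2 CO and 9.95 ± 2.17 CPM in MCT2 KO (SD, n = 3 each), and *Crlf2*, a cytokine receptor subunit, had 38.8 ± 5.93 and 21.3 ± 7.39 CPM. The adjusted p of the 5 genes lay between 0.370 and 0.433 by edgeR's quasi-likelihood test. The exons of *Gnas* lie to 22.2% and those of *Phf1* to 78.0% inside another listed gene, so these counts are uncertain. Among the 9 genes themselves, the nearest pair was *Slc16a1* and *Ldhb*, at 0.14. This distance is small for any genes that vary little over the samples and does not show that they vary together. Their log2 fold changes had opposite signs, -0.19 and 0.04.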

How the data were processed

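Bulk RNA-seq of CD11b+ cells from 3 MCT2 CO and 3 MCT2 KO tumors was analysed. The library kit selected poly-A RNA and kept strand. Per the submitters' processing notes and the methods, the authors used FastQC 0.12.0 and MultiQC 1.28 for read quality, STAR 2.7.11b for alignment to GRCm38 and featureCounts 2.1.1 for counting. The authors deposited these raw counts with no normalization or pooling. Their DESeq2 version was 1.18.1. The annotation, feature type and strand setting of the counting are not given in the sources used here. The sample titles gave the groups and the replicate numbers. Where nothing says that samples came from separate animals, p-values measure only the spread between these samples.

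The table's gene lengths equal whole gene spans, and 2.4% of its positions match GENCODE M21 on GRCm38 (98.1% of its span lengths do), so positions and exon lengths were taken from GENCODE M21 by Ensembl identifier for the 25645 shared genes. Genes passing filterByExpr with a minimum count of 10 and a minimum total of 15 were normalized by TMM and tested with edgeR 4.0.16 (R 4.3.3), quasi-likelihood, with Benjamini-Hochberg adjustment over all 13485 genes. For single values, exact permutation tests (two-sided, SciPy 1.17.1) were run. DESeq2 1.42.0, limma-voom 3.58.1, other normalizations and filters, a replicate block and each sample left out were the alternatives. Scripts were tested on simulated data. Differences between replicates of a group exceeded sampling noise for every pair (chi-square per gene 15.7 to 79.2). At these depths the lowest gene, *Slc16a7*, had 133 counts or more.

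The 9 genes, the lists and the markers were chosen with earlier results of these data known. The genes named are these, the members of the lists, and the 5 genes with the profile nearest to *Slc16a7*. *Ero1l* of the HIF-1 list was matched as *Ero1a*, and the erythroid marker *Hbb-bs* was not matched. The 8 genes of the dissociation response list summed to 8219 to 9239 CPM in MCT2 CO and 6943 to 8436 CPM in MCT2 KO, which overlapped. Of these 8, 7 had a negative log2 fold change (median -0.33, 49.9% of all genes negative). By edgeR 3 were lower at an unadjusted p under 0.05 (5.6% of all genes). For 3 the groups did not overlap with MCT2 KO below (8.77% of all genes), and DESeq2 called 1 (0.705% of all genes). The part of the dissociation response in the results was not tested.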

Additional observations from a re-analysis of the deposited data

How the results depend on the processing

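Of 218 values recomputed under alternatives, 206 were rated the same. For the fold changes of the 9 genes this meant the same direction and side of the threshold, which 121 of 126 kept. For counts of genes, shares and ratios it meant a shift within a set limit. The number of genes called was 0 in the edgeR analysis, 2 on all genes with at least 1 count, 79 by DESeq2 on the filtered genes and 95 by DESeq2 on all genes, and between 0 and 2 with each sample left out (2 without MCT2 KO replicate 2). DESeq2 called 1 of the 9 genes in both of its runs, *Slc16a7*, at a log2 fold change of -1.05 (adjusted p of 0.00952) on the filtered genes and -1.04 (adjusted p of 0.00862) on all genes, whereas limma-voom called 0 of the 9 genes and 0 genes in all. The cause was not tested. The number of genes at an unadjusted p under 0.05 was 787 without MCT2 CO replicate 3 and 1576 without MCT2 KO replicate 2. With each sample left out, the log2 fold change of *Slc16a6* lay between -0.029 (without MCT2 KO replicate 1) and 0.20, that of *Slc16a10* between -0.17 and 0.0060 (without MCT2 KO replicate 2), and that of *Ldhb* between -0.0064 (without MCT2 KO replicate 3) and 0.080. The sign thus turned for these genes, none of which was called in any analysis. With raw counts in place of counts per kb, the difference in the *Slc16a7* share was -4.78 percentage points, since its exons are longer than those of *Slc16a1* and *Slc16a3*. Same-numbered samples of the groups did not all deviate together (correlations of 0.22, -0.25 and -0.16), and not every sample correlated best with its own number. No pairing by number was apparent, but 3 samples a group are too few to exclude it. With the replicate number as a block, 0 genes were called (1048 at an unadjusted p under 0.05). *Slc16a7* then had a log2 fold change of -1.06 (adjusted p of 0.330 by edgeR's quasi-likelihood test). Its SE was 0.14 with the block and 0.24 without it. The block changed no call. The alternatives without MCT2 CO replicate 3 and without MCT2 KO replicate 2 for the gene lists were chosen after seeing the data. With 3 samples a group, exact tests cannot go below 0.1.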
